A study of Emiliania huxleyi with 18 samples.

Results

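The 6 libraries described here come from cultures of the alga Emiliania huxleyi that grew under weak UV and were harvested on day 10 (3 libraries) or day 13 (3 libraries). They were chosen by their labels from the 18 libraries of the series, and the comparison asks how transcript levels changed over the second step of culture ageing while UV was present. Emiliania huxleyi is a coccolithophore, a single-celled marine alga that covers itself with calcite scales and can form large ocean blooms. In a standing batch culture nothing is renewed, so cells pass from rapid division into crowding and nutrient depletion as the culture ages, and transcript levels are known to shift with that passage. UV-B is known to damage DNA and photosystem proteins in algae.

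All groups used here were the axenic strain CCMP3266 in 50 ml standing cultures of artificial sea water with L1 nutrients but no silicate, started at 330 cells per ml and kept at 18 °C. Growth light, at 130 µmol of photons per m2 and second, was on for 16 h and off for 8 h in all of them. The UV day 10 and UV day 13 groups, and UV day 7 where it is used, were labelled as constant UV, which per the labels' protocols meant a lamp on for 14 h of each light period. Its measured intensities in W per m2 were 0.5 in the UV-A range, 0.07 for UV-B and 0.026 for UV-C. The control day 10 and control day 13 groups received growth light alone, and each group held 3 libraries. The lamp gave UV-A, UV-B and UV-C together, so their parts cannot be told apart, and only 1 strain was used. The design text speaks of triplicates, and nothing in the labels states how many separate cultures they came from, so p-values measure the spread between these libraries.

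The libraries were made by MARS-seq2.0, which marks each captured transcript near its 3′ end with a random barcode, the unique molecular identifier or UMI, so that the count is of molecules and not of amplified copies. The UMI totals were 1699470, 1648083 and 5420491 in replicates 1, 2 and 3 of UV day 10, and 3301281, 4797836 and 3710295 in those of UV day 13. Replicates 1 and 2 of day 10 stood apart in both arms. In these 4 libraries the ratio of UMIs to reads was 0.870 to 0.876, compared with 0.700 to 0.795 elsewhere, and both UV ones were shallower than UV day 10 replicate 3. No label names a batch, and counts are therefore also given from fits that keep either the shallow or the deep libraries of day 10. Levels are given as CPM, UMIs relative to the scaled library total, with no division by gene length. They are relative to all captured RNA, so fewer cells with a transcript and less of it per cell cannot be told apart.

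Genes carry the authors' identifiers only. The files pair them with no names or descriptions and none matched the reference gene table, so no function, sequence or position can be given, the cell identity could not be checked against marker genes, and at most 2 genes are named in each direction of a comparison. The other genes are described by their counts and levels.

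Day 13 and day 10 libraries were well separated under UV. In a principal component analysis of the 6 libraries the first component held 55.8% of the variance and placed UV day 10 replicates 1, 2 and 3 at -45.3, -52.5 and -24.4 and those of UV day 13 at 41.8, 35.7 and 44.7. The second component, with 17.9%, set UV day 10 replicate 1 (42.0) and replicate 2 (-39.7) apart from each other, while the other 4 libraries lay between -1.91 and 1.58. Log2 CPM correlated across genes at a mean of 0.963 within UV day 10, 0.980 within UV day 13 and 0.936 between the days, where genes are not independent replicates.

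From day 10 to day 13 under UV, 3641 of 18196 genes tested had an edgeR quasi-likelihood adjusted p under 0.05 (20.0% of genes), which is the background for every count of this comparison below. Of these, 1664 were higher on day 13 (9.14%) and 1977 lower (10.9%). Changes of at least 2-fold were reached by 659 of the higher (3.62%) and 559 of the lower genes (3.07%), of at least 4-fold by 184 and 160, and of at least 8-fold by 35 and 68. The median log2 fold change was 0.82 among genes that rose and -0.69 among genes that fell, with 1 gene in 10 beyond 2.06 and -1.75. The libraries of the 2 days did not overlap for 6128 genes (33.7%). The 3 day 13 libraries lay entirely above the 3 day 10 libraries for 3077 genes (16.9%) and entirely below for 3051 (16.8%).

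The balance between rises and falls depended on the scaling. The trimmed mean of M-values (TMM) used here gave a median log2 fold change over all genes of 0.00, and 45.7% of the called genes were higher. Scaling by total count put that median at 0.16, and 3101 genes were then higher and 1248 lower (71.3% higher), of 4349. Directions below are relative to the TMM median unless stated. The called genes numbered 2521 with only day 10 replicate 3 of each arm and 3122 with only replicates 1 and 2, of which 1165 and 1346 were higher. The fit with replicate 3 alone leaves 1 library in each day 10 group, which is assumed to vary like the libraries of the other groups, and this holds wherever only the deep day 10 libraries are used below. UMIs per read were 0.788 to 0.795 on UV day 13, inside the range of 0.716 to 0.876 on UV day 10 (exact permutation p = 0.4, two-sided).

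**Figure D1:**
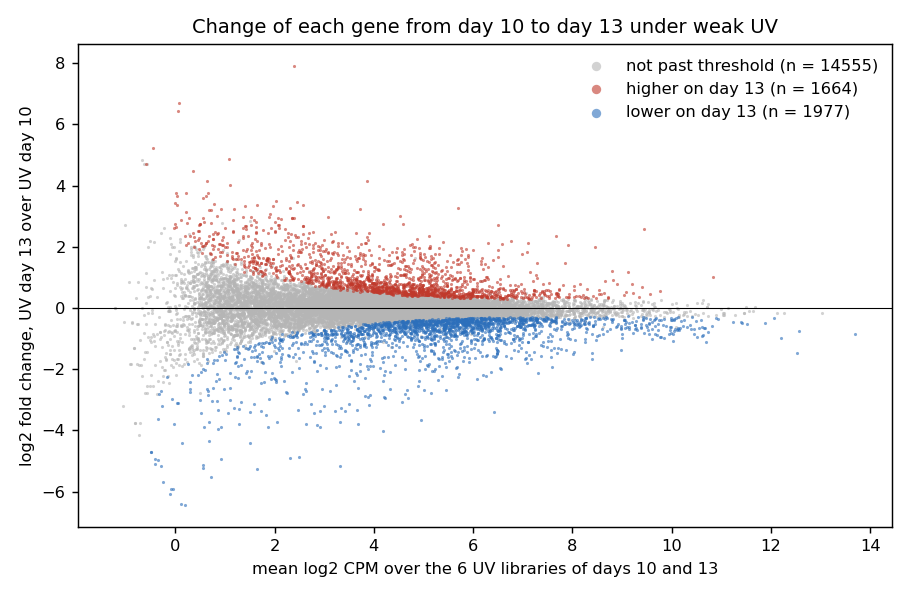
Log2 fold change of each gene from UV day 10 to UV day 13 against its mean log2 CPM over the 6 libraries, with genes past the edgeR threshold in red (1664 higher) and blue (1977 lower). Falls reach further to the right, among abundant transcripts, and both directions widen at low levels.

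Falling genes were the more abundant ones. The median level on UV day 10 was 52.9 CPM for genes that fell and 14.7 CPM for genes that rose, against 18.8 CPM for all genes tested. By day 13 the medians were 30.7 CPM and 26.3 CPM. The sets were chosen for falling or rising between these same libraries. That choice by itself favours a high start for genes that fell and a low one for genes that rose. In control day 10 libraries, not compared in that choice, the medians were 56.6 CPM for genes that fell and 16.4 CPM for genes that rose. Genes that rose at least 2-fold started lowest, from a median of 4.05 CPM to 12.3 CPM, while those that fell at least 2-fold went from 23.6 CPM to 7.29 CPM.

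With the genes divided into 4 equal bins by mean CPM over all 18 libraries, the direction of change turned with abundance. That mean includes the libraries compared and those of day 7, so bin and change are not independent. In the lowest bin of 4549 genes, 387 rose and 129 fell, and in the second bin 456 rose and 254 fell. The third bin was near balance with 457 and 427, but had 921 rises and 242 falls under total-count scaling. In the highest bin 364 rose and 1167 fell, that is 8.00% and 25.7% of its genes, against 778 rises and 756 falls under total-count scaling. Low counts limit what can be called in the lowest bin. The median size of the fitted log2 change was 0.44 there against 0.23 in the highest bin. Counting error is larger at low counts and enters these sizes, so they do not show larger real changes.

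Among the most abundant transcripts, those that passed the test were nearly all lower on day 13. Abundance was again the mean over all libraries, those compared included, which lets in genes that were high only before day 13. Among the 100 genes of highest mean CPM (1113 CPM or more), 58 fell and 1 rose in edgeR's test, with a median log2 fold change of -0.39 against 0.00 over all genes. Of these falls, 3 reached 2-fold. Among the 1000 highest, 377 fell and 72 rose, with a median of -0.20. Under total-count scaling 48 of the 100 still fell and 5 rose, and of the 1000, 265 fell and 152 rose. With only the deep day 10 libraries 48 of the 100 fell and with only the shallow ones 57.

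**Figure D2:**
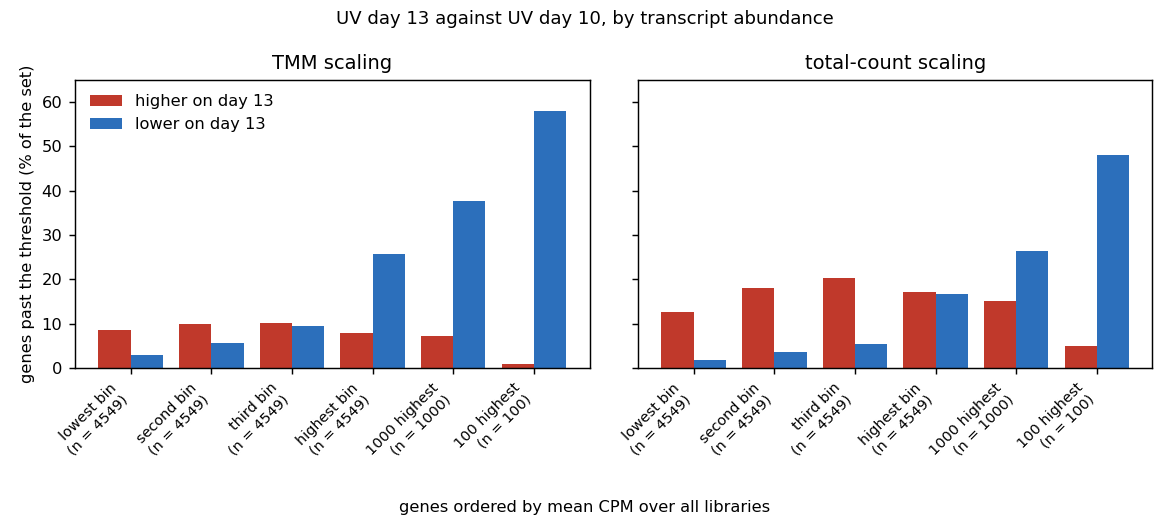
Percent of genes past the edgeR threshold that were higher (red) or lower (blue) on UV day 13 than on UV day 10, in 4 bins of mean CPM and in the 1000 and 100 most abundant genes, under TMM and total-count scaling. Mean CPM is over all libraries, those compared included. Blue bars grow with abundance under both scalings, to 58% and 48% of the 100 highest, while the red bar is the taller one in the lowest 3 bins under TMM, narrowly in the third (10.0% against 9.39%), and in all 4 bins under total-count scaling.

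The weight of the leading transcripts in the library, which needs no scaling, also dropped. In each library its own 100 most abundant genes held 23.5%, 22.6% and 23.7% of all UMIs in UV day 10 replicates 1 to 3 and 20.4%, 18.0% and 20.5% in UV day 13 replicates 1 to 3. Every day 13 library lay below every day 10 library. The difference of the means was -3.65 percentage points (23.3 ± 0.579 against 19.6 ± 1.42, SD, n = 3 each), with a two-sided exact permutation p of 0.1, the smallest that 3 against 3 allows. In control cultures the share went from 23.1% ± 0.151 to 19.6% ± 1.44 (SD, n = 3 each).

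More genes were detected as the share of the leading ones dropped, but only a comparison at equal depth separated the days. Genes with at least 1 UMI numbered 19879, 19899 and 22674 in UV day 10 and 22032, 23185 and 22178 in UV day 13, and these groups overlapped (exact permutation p = 0.3, two-sided). With each library thinned to 1060640 UMIs, the numbers were 18932, 19004 and 19341 on day 10 and 19641, 19795 and 19516 on day 13. The groups then did not overlap, with a mean difference of 558 genes and an exact permutation p of 0.1, two-sided.

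Of the 1977 genes that fell, 12 had 0 UMIs over the 3 UV day 13 libraries and 28 had 3 or fewer. Of the 1664 that rose, 4 had 0 UMIs over the 3 UV day 10 libraries and 36 had 3 or fewer. A count of 0 over a group allows a level of up to 0.340 CPM on UV day 10 and 0.226 CPM on UV day 13 (3 UMIs over the group, counting error only).

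The gene with the largest rise among those eligible to be named was G8314. Genes named for the step had to have days that did not overlap, so that separation is set by the choice. It was at 4.10, 4.21 and 2.38 CPM in UV day 10 replicates 1 to 3 and at 46.6, 66.2 and 51.2 CPM in UV day 13 replicates 1 to 3. The day 13 libraries stood an order of magnitude above all day 10 libraries. The log2 fold change was 4.14 with SE 0.25 (17.6-fold, edgeR adjusted p = 7.47e-14). G8314 had 0 UMIs in every UV day 7 library, which allows a level of up to 0.203 CPM, so its level was higher at each later harvest.

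In control cultures G8314 also rose over the step (edgeR adjusted p = 2.16e-06), at a lower level. It had 0 UMIs over the 3 control day 10 libraries, which allows up to 0.299 CPM, and 3.85, 2.21 and 3.76 CPM in control day 13 replicates 1 to 3, from 63 UMIs. The means were 3.27 ± 0.923 CPM on control day 13 and 3.56 ± 1.02 CPM on UV day 10 (SD, n = 3 each), and every control library lay below every UV day 13 library. The change over the step itself could not be shown to differ between arms (edgeR adjusted p = 0.495).

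The second named rise, G26115, varied more between libraries and had only 12 UMIs over the 3 UV day 10 libraries. It was at 1.17, 0 and 1.83 CPM in UV day 10 replicates 1 to 3 and at 23.7, 5.40 and 20.0 CPM in UV day 13 replicates 1 to 3. UV day 13 replicate 2 lay well under the other two but above all of day 10. The log2 fold change was 3.50 with SE 0.73 (edgeR adjusted p = 0.00328), and 3.07 to 4.64 over the alternative fits. It was 4.62 without UV day 10 replicate 3, which leaves 2 and 0 UMIs in the day 10 libraries. Without UV day 13 replicate 1 it was 3.14. The call was lost with only day 10 replicate 3 of each arm (edgeR adjusted p = 0.0778), with limma-voom (0.0837) and with only the 6 UV libraries in the fit (0.0508). In control cultures it rose from 1.56 ± 1.38 to 36.3 ± 5.34 CPM (SD, n = 3 each, edgeR adjusted p = 6.87e-05), and on UV day 7 it stood at 5.27 ± 0.801 CPM (SD, n = 3).

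The steepest named fall was that of G8750, an abundant transcript early on. It was at 46.3, 69.7 and 50.9 CPM in UV day 10 replicates 1 to 3 and at 0.827, 1.98 and 1.46 CPM in UV day 13 replicates 1 to 3. No day 13 library came near the day 10 range, though the day 13 levels rest on 3, 11 and 6 UMIs. The log2 fold change was -5.17 with SE 0.47 (edgeR adjusted p = 1.17e-06). It had already stood at 275 ± 57.0 CPM on UV day 7 (SD, n = 3), so the level was lower at each later harvest.

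G37904 had a like course. It was at 15.2, 20.4 and 28.2 CPM in UV day 10 replicates 1 to 3 and at 0.551, 0.900 and 0.732 CPM in UV day 13 replicates 1 to 3, after 143 ± 22.4 CPM on UV day 7 (SD, n = 3). The day 13 levels rest on 2, 5 and 3 UMIs, so the size of the fall is imprecise. The log2 fold change was -4.89 with SE 0.32 (edgeR adjusted p = 5.61e-14), or -4.10 at equal depth. In control cultures the same step took G8750 from 91.6 ± 35.1 to 2.86 ± 1.42 CPM and G37904 from 33.9 ± 6.98 to 1.47 ± 0.410 CPM (SD, n = 3 each). The change of these 2 genes over the step was not shown to differ between arms (edgeR adjusted p = 0.977 and 0.874), with differences of -0.15 (SE 0.73) and -0.36 (SE 0.53) on the log2 scale.

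**Figure D3:**
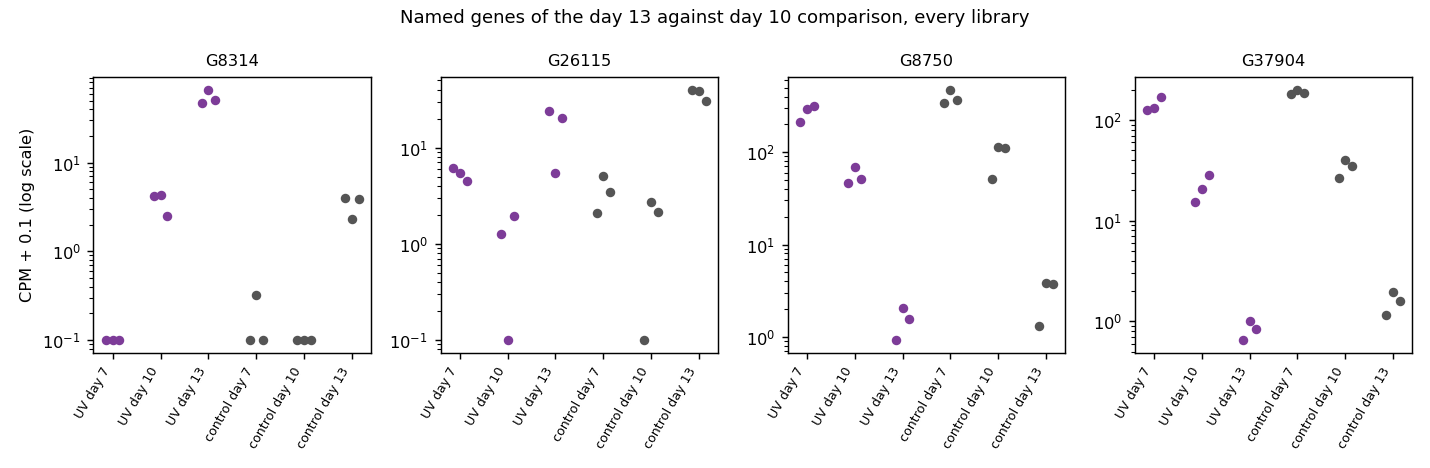
CPM + 0.1 on a log axis in every library for the 4 named genes, UV groups in purple and control groups in grey, 1 point per library. G8314 is at 46.6 to 66.2 CPM on UV day 13 against 2.21 to 3.85 CPM on control day 13, whereas G8750 and G37904 are lower at each later harvest in both arms.

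The same step was compared with that of cultures without UV to see where the UV cultures differed. In control cultures 4737 genes passed the edgeR threshold from day 10 to day 13 (26.0%), 2198 higher (12.1%) and 2539 lower (14.0%). Without control day 10 replicate 3, 1163 were higher. Rises of at least 2-fold were about as many as under UV, at 693 (3.81%) against 659. Falls of at least 2-fold numbered 1147 (6.30%) against 559 under UV, and falls of at least 4-fold 428 against 160. Under total-count scaling these 2-fold falls were 945 and 423. Thinned to equal depth within each comparison they were 908 and 519. The totals were then 2760 genes in control cultures (980 higher, 1780 lower) and 2775 under UV (1230 higher, 1545 lower). The depth was 1124600 UMIs for the control comparison and 1648083 for the UV one. Before thinning, control day 13 libraries held 5274045 to 6426803 UMIs, more than every UV day 13 library.

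Most of what changed under UV moved the same way in control cultures. The 2 arms share no library in this step, although both have the shallow day 10 replicates and come from 1 fit. Of the genes that rose under UV, 1086 also rose in control cultures, 65.3% of the UV list and 49.4% of the control list, against a background of 12.1% of all genes. Of those that fell under UV, 1388 also fell in control cultures, 70.2% and 54.7% of the lists, against 14.0%. Opposite calls were rare, with 16 genes higher under UV and lower in control and 3 the other way. Log2 fold changes of the arms correlated across the 18196 genes at r = 0.731 (rho 0.639), as a description.

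The genes called under UV were also weighed in the control libraries, which entered the fit that called them only through the low-count filter, the scaling and the shared spread. Genes that rose under UV held 5.46%, 5.28% and 5.48% of UMIs in UV day 10 replicates 1 to 3 and 10.1% to 10.3% on UV day 13. In control libraries the same genes held 5.69% to 6.06% on day 10 and 9.56% to 10.4% on day 13. Genes that fell under UV went from 33.4% ± 0.642 to 23.1% ± 0.153 of UMIs under UV, and from 33.5% ± 0.823 to 23.5% ± 1.07 in control cultures (SD, n = 3 each). On day 7, outside this step, the genes that rose held 5.00% ± 0.140 under UV and 4.83% ± 0.0615 in control (SD, n = 3 each), below every day 10 library of the same arm, while those that fell held 37.3% to 37.5% and 38.6% to 40.5%, above every day 10 library.

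**Figure D4:**
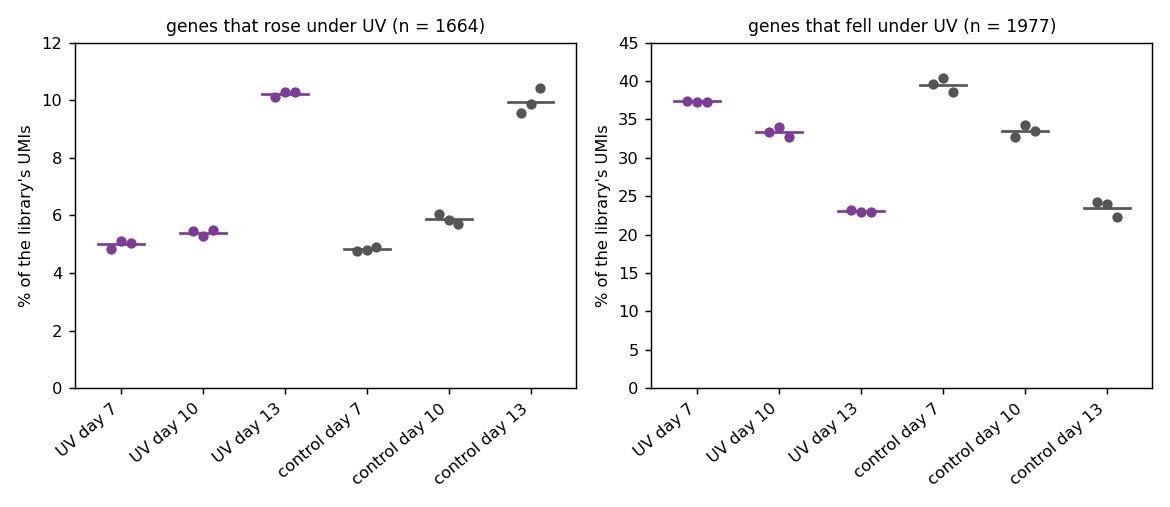
Percent of each library's UMIs in the 1664 genes that rose and the 1977 that fell from UV day 10 to UV day 13, by group, with 1 point per library and a bar at the mean. The purple UV points of days 10 and 13 were used to choose the genes. The grey control points are from libraries not compared in that choice, and go from 5.69% to 6.06% on day 10 up to 9.56% to 10.4% on day 13 for the genes that rose.

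Where the arms did differ, the change was mostly the more positive one under UV. The test of the difference between the arms' changes picked out 467 genes with edgeR (2.57%), 414 with the more positive change under UV (2.28%) and 53 with the more negative one (0.291%). At least 2-fold differences numbered 231 (1.27%) and 16 (0.0879%). Among the 414 genes, 387 fell in control cultures, 211 fell under UV and 42 rose under UV. The fitted change was negative in both arms for 303 of them, negative in control and positive under UV for 103, and positive in both for 8.

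The 414 genes had a median log2 change of -1.58 in control cultures and -0.44 under UV, with a median difference of 1.06. Their median level went from 73.1 CPM on control day 10 to 23.3 CPM on control day 13, and from 48.5 to 32.0 CPM under UV. UV cultures had the lower median of these genes on day 10 and the higher one on day 13. The genes were chosen by this difference in these same libraries, which favours such an order. The 53 genes of the other direction went from a median of 20.5 to 33.0 CPM in control cultures and from 30.5 to 29.5 CPM under UV.

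The count of 467 depended on single libraries. It was 296 without UV day 10 replicate 3 and 259 without UV day 13 replicate 2, with 266 and 241 positive. With only the shallow day 10 libraries 189 genes passed, 158 of them positive, and with only the deep ones 406, of which 390 were positive. At equal depth 247 passed, 229 of them positive.

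The gene with the smallest p for a more positive change under UV was G13865. It was at 4.69, 6.61 and 2.75 CPM in UV day 10 replicates 1 to 3 and at 5.51, 7.92 and 4.15 CPM in UV day 13 replicates 1 to 3, with overlapping groups and no call under UV (log2 fold change 0.62, SE 0.31, edgeR adjusted p = 0.170). In control cultures it fell from 10.6, 11.2 and 11.5 CPM to 0.700, 1.19 and 1.08 CPM, the latter from 4, 7 and 8 UMIs. The difference between the changes was 4.09 on the log2 scale with SE 0.45 (edgeR adjusted p = 7.40e-07), or 3.02 at equal depth (edgeR adjusted p = 0.0377). Its control level on day 10 was above every UV day 10 library.

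In the other direction G39390 had the smallest p. Under UV it was at 37.5, 35.5 and 31.5 CPM in day 10 replicates 1 to 3 and at 34.2, 26.5 and 31.2 CPM in those of day 13, a change that did not pass the test (log2 fold change -0.17, SE 0.15, edgeR adjusted p = 0.507). In control cultures it rose from 23.8, 12.5 and 13.6 CPM to 29.4, 24.3 and 32.0 CPM, with all day 13 libraries above all day 10 ones. The difference was -1.10 with SE 0.23 (edgeR adjusted p = 0.00365). It lost the call without control day 10 replicate 3 (0.107), with only the shallow day 10 libraries (0.112) and at equal depth (0.271), edgeR adjusted p in each case.

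**Figure D5:**
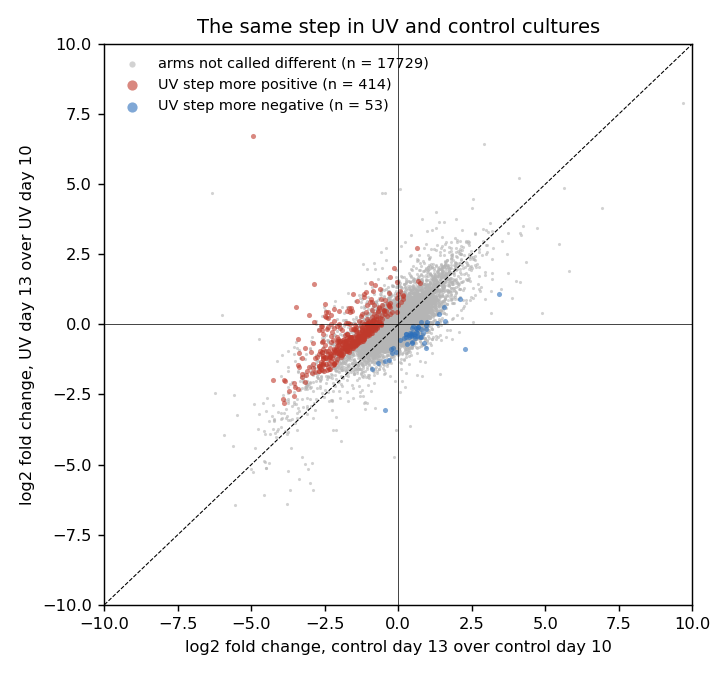
Log2 fold change from day 10 to day 13 in UV cultures against that in control cultures, 1 point per gene, with the dashed line marking equal change. The 414 red points, with the more positive change under UV, lie mostly left of zero on the control axis, and 53 blue points lie on the other side of the line.

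The second ageing step under UV was also set against the first, from day 7 to day 10. The first step gave 6903 genes (37.9%), 3303 higher (18.2%) and 3600 lower (19.8%) in edgeR's test, against 3641 for the second. Falls of at least 2-fold numbered 1481 (8.14%) in the first step and 559 in the second, and rises of at least 2-fold 707 (3.89%) and 659. Rises of at least 4-fold were 94 in the first step and 184 in the second. UMI totals of UV day 7 replicates 1 to 3 were 1060640, 5547001 and 9216603. Calls of the first step were not recounted at equal depth, so the counts of the 2 steps may differ in power. Both steps share the UV day 10 libraries, so their calls are not compared gene by gene.

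A direct test of the difference between the steps picked out 2630 genes with edgeR (14.5%). The second step was the more positive for 1277 (7.02%) and the more negative for 1353 (7.44%), by at least 2-fold for 853 (4.69%) and 675 (3.71%). The 1277 genes had median levels of 38.0, 21.3 and 26.4 CPM on UV days 7, 10 and 13, lowest on day 10. The 1353 had 35.4, 56.4 and 42.7 CPM, highest on day 10. Both sets, and the genes named from them below, were chosen by this difference in these same libraries. That choice favours a low day 10 for the former and a high day 10 for the latter. These genes turn on the UV day 10 level, and the count was 1507 with a term for the 4 shallow libraries, 1134 with only the deep day 10 library of each arm and 1286 at equal depth. Without UV day 10 replicate 1 or replicate 3, 757 and 687 genes had the more positive second step.

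G3527 was the gene with the smallest p for a more positive second step. It was at 716, 761 and 734 CPM on UV day 7, at 275, 240 and 241 CPM on UV day 10 and at 395, 384 and 395 CPM on UV day 13, in replicates 1 to 3. No 2 days overlapped, and day 10 was the lowest. The difference between the steps was 2.19 on the log2 scale with SE 0.19 (edgeR adjusted p = 2.57e-10). In control cultures it was lowest on day 10 too, at 622 ± 33.6, 251 ± 6.78 and 466 ± 64.4 CPM on days 7, 10 and 13 (SD, n = 3 each).

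G32246 had the smallest p for a more negative second step. It was at 103, 95.3 and 106 CPM on UV day 7, at 172, 181 and 173 CPM on UV day 10 and at 59.5, 57.2 and 59.0 CPM on UV day 13. Day 10 stood above both other days in every library. The difference between the steps was -2.37 with SE 0.19 (edgeR adjusted p = 5.74e-11). Its fall from day 10 to day 13 was steeper under UV (log2 fold change -1.58, SE 0.11) than in control cultures (-0.88, SE 0.11), with an edgeR adjusted p of 0.00702 for the difference between arms. G32246 was chosen for its levels in these same UV libraries, which favours a steeper fall under UV in that test. Control day 10 replicates 1 to 3 were spread, at 106, 154 and 128 CPM.

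The authors' deposited table of DESeq2 comparisons lists 2935 genes with an adjusted p under 0.05 between UV day 13 and UV day 10, 1181 higher and 1754 lower on day 13. Of the 3641 genes called here, 2881 were also past that threshold in the authors' deposited table, all with the same direction, which is 79.1% of the list here and 98.2% of the authors' list. DESeq2 run here on the same UMI counts gave 3029 genes.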

How the data were processed

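Bulk RNA of 18 libraries was measured by MARS-seq2.0, per the labels' protocols. The authors deposited UMI counts and read counts per gene, whole numbers that were not normalized, and a table of DESeq2 comparisons whose log2 values and adjusted p-values are named in the file headers. Aligner, genome build and annotation: not given in the sources used here. The 2 count tables list 41734 genes. Another 54 columns of per-library values in the authors' table were not used. The matrices pair 19234 genes with a second identifier, and for 1543 of them it is not unique, so reads could be split between entries. Such genes were not named.

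Groups were taken from sample titles. The main test was edgeR 4.0.16 (R 4.3.3) on UMI counts: TMM scaling, filterByExpr (minimum count 10, minimum total 15), robust quasi-likelihood F-tests, which are two-sided, with 1 mean per group over all 18 libraries and Benjamini-Hochberg adjustment over the 18196 genes kept (at least 99.7% of each library's UMIs). Standard errors were derived from the F statistic, and log2 CPM used a prior count of 2. Two-sided exact permutation tests served single values per library. The pipeline was tested on simulated data. Alternatives included limma 3.58.1 (voom) and DESeq2 1.42.0.

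Named genes had no shared second identifier and at least 10 UMIs in each group compared. For the step itself they were the 2 largest rises and 2 largest falls past the threshold with groups that did not overlap, and for each test of a difference the smallest p in each direction. The comparison, lists and tests were chosen with earlier results of these data known. Function lists were planned but not run, because no descriptions are paired with the identifiers.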

Additional observations from a re-analysis of the deposited data

Results flagged for a closer look

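The step from day 10 to day 13 differed between UV and control cultures, by a test of the difference itself, for 467 genes in edgeR's quasi-likelihood test. G13865 differed by 4.09 and G39390 by -1.10 on the log2 scale (UV change minus control change).

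The second step under UV differed from the first, by a test of the difference itself, for 2630 genes in edgeR's quasi-likelihood test. G3527 differed by 2.19 and G32246 by -2.37 on the log2 scale (second step minus first).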

How the results depend on the processing

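Leaving out 1 library at a time, the genes called between UV day 13 and UV day 10 numbered 2929 to 3229, the falls among the 100 most abundant genes 47 to 57, the control calls 3251 to 4529, the differences between arms 259 to 570 and the differences between steps 1796 to 2612. The share of UMIs in the 100 leading genes then differed by -4.10 to -2.83 percentage points and the number of detected genes by 1178.5 to 2576. Tested against a change of 1.5-fold, 939 genes were called under UV, 460 of them higher, and 13 of the 100 most abundant fell, fewer by construction. At equal depth 2760 control genes, 247 differences between arms and 1286 differences between steps were called, on fewer UMIs. With only the shallow day 10 libraries 189 differences between arms were called, and with a term for those libraries or only the deep ones 1507 and 1134 differences between steps. The cause was not tested. The 10 leading genes, fewer than 100 by construction, held 1.97 percentage points less on day 13 (difference -1.97). At equal depth the difference in detected genes was 558 instead of 1648. The other alternatives, 13 of 14 for the UV comparison, kept the total number of calls within 1.5 times, but total-count scaling moved the UV rises from 1664 to 3101 and the falls from 1977 to 1248. Total-count scaling raised the higher share of control calls from 46.4% to 70.8%, and DESeq2 gave 36.0%. Without a low-count filter 648 differences between arms were called.

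With the replicate number as a block, 3804 genes were called under UV, 4849 in control, 530 between arms and 2744 between steps. Same-numbered UV day 10 and day 13 libraries deviated together at r of -0.00730 to 0.0433 across genes, 2 of 3 correlating best with their own number. For differently numbered ones r was -0.0519 to 0.0146. These values do not settle whether the numbers are pairs. No label states pairs, so the main test took none. Among named genes, 0 changed direction, and G26115 and G39390 lost the call in 3 alternatives each, with adjusted p (edgeR, limma or DESeq2) of 1.80e-10 to 0.0837 and 0.000166 to 0.271 over 20 and 24 alternatives. The falls among the 100 most abundant genes were put through these settings after the data were seen. Day 10 depth limits the calls at low levels.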
